A study of Mus musculus with 3 samples.

Results

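The 9 genes described here are Bhlhe41, Zbtb32, Sox5, Cd5, Spn, Il5ra, Fcrl5, Zfp811 and Zcwpw1, out of 32285 genes in the count matrices. They were picked as known genes of B1 cells or as leading genes of B1-like cells in these same libraries, and their co-expression over B cells was in view when they were picked. Their levels and their co-detection are therefore a description of these libraries. The cells are live CD45+ cells sorted from the aorta, adventitia included, of ApoE-/- mice on the C57BL/6J background, read by droplet sequencing of transcript 3' ends. The 3 groups had 1 library each: control mice, HHcy mice that drank water with homocysteine (1.8 g/L, 4 weeks), and WD mice fed a western diet (4 weeks). By the labels every group, the control included, carries the ApoE-/- genotype. The labels do not give the number of mice pooled into a library. With 1 library per group there is no replicate check and no test between groups.

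B1 cells are innate-like B cells that arise mainly in fetal life, renew themselves in the body cavities and secrete natural IgM, part of which binds oxidised lipids and dying cells. B1a cells are classically told from other B cells by CD5 on the surface, and B1 cells more widely by CD43, the product of Spn. In mouse atherosclerosis, natural IgM from B1 cells has been linked to protection of the vessel wall. Among the 9 genes, Bhlhe41, Zbtb32 and Sox5 encode transcription factors, Cd5, Spn, Il5ra and Fcrl5 encode surface proteins, and Zfp811 and Zcwpw1 encode zinc finger proteins.

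The control library held 7512 barcodes, the library labelled HHcy 9753 and the WD library 8557, with 66789257, 105180370 and 93164076 unique molecular identifiers (UMIs, each standing for 1 captured transcript). Clusters named as B cell-like from marker genes held 2193, 3664 and 1224 cells, with medians of 7431, 6413 and 6564.5 UMIs. Apoe, the gene disrupted in the strain, was at 16.3 CPM (UMIs scaled to a total of 1000000) in the control library, 374 CPM in the library labelled HHcy and 19.3 CPM in the WD library. The labels do not say which stretch of Apoe is disrupted, so 3' reads cannot check the allele itself. The level of the HHcy library goes against a genotype shared by all 3, and it is called the library labelled HHcy throughout. Pairs of libraries shared 20 to 24 cell barcodes.

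The genes lie on 6 of the mouse chromosomes (mm10, GENCODE M21 annotation; all 9 are protein coding and the spans are of whole genes, exons and introns included). The transcription factor genes are Bhlhe41 (ENSMUSG00000030256, chr6:145858243-145865558, minus strand), Zbtb32 (ENSMUSG00000006310, chr7:30589681-30598909, minus strand) and Sox5 (ENSMUSG00000041540, chr6:143828425-144781977, minus strand). The surface protein genes are Cd5 (ENSMUSG00000024669, chr19:10717116-10739002, minus strand), Spn (ENSMUSG00000051457, chr7:127132232-127137823, minus strand), Il5ra (ENSMUSG00000005364, chr6:106710357-106749037, minus strand) and Fcrl5 (ENSMUSG00000048031, chr3:87435773-87500678, plus strand). The remaining pair is Zfp811 (ENSMUSG00000055202, chr17:32795676-32809931, minus strand) and Zcwpw1 (ENSMUSG00000037108, chr5:137787798-137822621, plus strand). Sox5 overlaps the counted transcripts Sox5os1 to Sox5os5 on the other strand and Sox5it on its own strand, and Zcwpw1 overlaps Pilra on the other strand. Whether counting used strand is not given in the sources used here, so reads of these overlapping genes cannot be told apart with certainty.

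Promoter sequence is shown for the 3 genes on which the description below turns: Bhlhe41, whose relative Bhlhe40 ran opposite to it; Zfp811, which differed most between the libraries; and Fcrl5, a receptor spread over more B cell sub-clusters than Il5ra. Each stretch lies upstream of the RefSeq start (GRCm38.p6) and of the annotated GENCODE gene, is written 5′ to 3′ on the strand of the gene, and has in capitals any match to CACGTG, the E-box read by many basic helix-loop-helix factors, or to AACAAT, a core motif of SOX factors, on either strand. The stretches are chr6:145865559-145865670 for Bhlhe41, chr17:32809932-32810181 for Zfp811 and chr3:87435532-87435772 for Fcrl5.
Bhlhe41: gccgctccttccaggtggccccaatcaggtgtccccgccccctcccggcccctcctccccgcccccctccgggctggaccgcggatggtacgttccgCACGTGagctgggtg
Zfp811: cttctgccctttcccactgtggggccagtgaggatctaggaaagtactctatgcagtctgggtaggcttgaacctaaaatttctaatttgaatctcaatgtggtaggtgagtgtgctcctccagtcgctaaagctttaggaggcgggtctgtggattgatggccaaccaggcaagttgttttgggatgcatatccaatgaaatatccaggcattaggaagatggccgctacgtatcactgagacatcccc
Fcrl5: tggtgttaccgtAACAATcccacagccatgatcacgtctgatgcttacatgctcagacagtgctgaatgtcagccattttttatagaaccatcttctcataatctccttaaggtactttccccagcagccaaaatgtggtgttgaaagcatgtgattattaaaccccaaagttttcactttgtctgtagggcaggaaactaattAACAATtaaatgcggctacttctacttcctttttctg
The 9 genes have 11 RefSeq promoter windows of 250 upstream bases, since Zbtb32 and Zcwpw1 have more than 1 start. CACGTG was present in 1 of the 11, that of Bhlhe41, and in 6.02% of all 32841 windows of that length. AACAAT was present in 1 of the 11, that of Fcrl5, which holds 2 matches, and in 9.43% of all windows. The octamer ATGCAAAT, the EBF motif (TCCC and GGGA with any 2 bases between) and the STAT motif TTCNNNGAA had no match in any of the 11, against 1.60%, 0.780% and 7.02% of all windows. These letters are a description of the windows and not a statement about binding.

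In all, 7 of the 9 genes had their highest summed level in B cells in the control and WD libraries, and the other 2, Cd5 and Spn, had theirs in T cells in all 3 libraries, counted over named classes of at least 30 cells. Il5ra, a subunit of the interleukin 5 receptor, gave 55.4, 28.5 and 41.5 CPM in B cells of the control library, the library labelled HHcy and the WD library, and at most 10.8 CPM in any other such class. B cells held 95.7%, 94.4% and 94.4% of the Il5ra UMIs of all cells used. Bhlhe41, a transcriptional repressor of the basic helix-loop-helix family, was at 67.1, 36.05 and 64.4 CPM in B cells. Stromal cells held 18.9, 22.05 and 29.3 CPM of Bhlhe41, and the 49 plasma cell-like cells of the library labelled HHcy held 68.4 CPM, above its B cells. In the other libraries only 11 and 10 cells were plasma cell-like, with 30 and 11 UMIs of Bhlhe41. Sox5, an HMG box factor known from cartilage, also had a stromal level, of 30.2, 11.5 and 6.32 CPM beside 59.9, 22.1 and 44.2 CPM in B cells.

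The textbook surface markers of B1 cells were the poorest markers of B cells among the 9 genes. Cd5, which dampens antigen receptor signals, was at 145, 151 and 184 CPM in T cells and at 4.50, 3.16 and 4.76 CPM in B cells, from 85, 91 and 46 UMIs. Its share of B cells with a UMI, with every cell thinned to 2000 UMIs, was 0.690%, 0.329% and 0.746%, beside 0.297%, 0.186% and 0.650% of macrophages/monocytes, which should lack it. The median depths of those macrophages/monocytes were 7353.5, 8194 and 9187 UMIs, and the intervals of the shares overlapped in each library. Within B cells, Cd5 was highest in sub-cluster 3 (described below), at 8.34, 14.2 and 10.9 CPM, and at most 5.10 CPM in any other sub-cluster. Of the B cells with Cd5, 7 of 76, 7 of 77 and 7 of 41 also held a UMI of Cd3d, Cd3e or Cd3g, or 9.21%, 9.09% and 17.1%, against 3.01%, 3.30% and 3.59% of all B cells. This was not particular to Cd5, as cells with any other of the 9 genes were also above all B cells, without thinning. Their shares ran from 4.30% (Il5ra) to 6.81% (Zfp811) in control and from 7.84% (Fcrl5) to 13.8% (Zfp811) in the library labelled HHcy. In WD they ran from 6.98% (Bhlhe41) to 13.3% (Zfp811). The part of T cell RNA in the Cd5 level was not tested. Spn, the sialomucin CD43, was at 233, 211 and 292 CPM in T cells, at 155, 118 and 111 CPM in macrophages/monocytes, and at 15.8, 9.86 and 19.1 CPM in B cells.

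**Figure D1:**
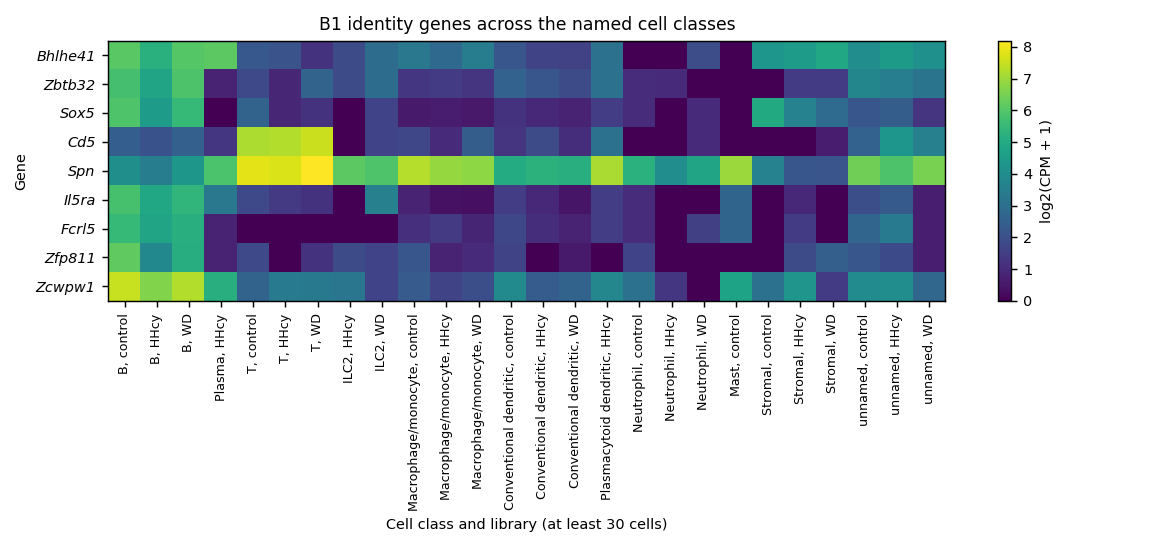
Each cell is log2(CPM + 1) of 1 gene (rows) in 1 named class of 1 library (columns, at least 30 cells), where CPM is scaled to the UMIs of that class. Cd5 and Spn are brightest in the T cell columns, at up to 184 and 292 CPM, and the other 7 genes in the B cell columns, apart from Bhlhe41 in plasma cells of the library labelled HHcy.

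In the B cells of the library labelled HHcy, every one of the 9 genes was below its level in the control library, and the intervals of all 9 ratios lay below 0. The share of all genes with such intervals is not given here, for this comparison or for that with WD. Zbtb32, a BTB zinc finger repressor that restrains B cell responses, was at 54.5 CPM in the control library, 26.7 in that labelled HHcy and 59.4 in WD. Fcrl5, a receptor of the Fc receptor-like family, was at 43.7, 26.5 and 34.7 CPM. Zcwpw1, a reader of histone methylation known from meiosis, was at 180.3, 99.9 and 151 CPM. The library labelled HHcy was the lowest of the 3 for each of these genes. The widest gap was in Zfp811, at 72.8, 13.1 and 33.6 CPM.

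Between the library labelled HHcy and the control, 3 of the 9 genes were at least 2-fold lower, where 3.44% of the 12226 genes tested were. The log2 ratios of those 3 were -2.47 for Zfp811 (95% interval -2.64 to -2.31), -1.44 for Sox5 (-1.58 to -1.30) and -1.03 for Zbtb32 (-1.17 to -0.89), and the median of the 9 was -0.90 beside -0.02 over all genes. The other 6 lay between -0.96 for Il5ra and -0.51 for Cd5, and all 9 genes passed the minimum of 20 UMIs. Thinned to 1000 UMIs per cell, 7 of the 9 were past 2-fold, and with the same mix of B cell sub-clusters in both libraries 1 was, Zfp811. Since the genes were chosen with levels by library in view, nothing is read from these counts. Between WD and control, only Zfp811 was at least 2-fold lower, with a log2 ratio of -1.11 (-1.29 to -0.94), where 1.13% of 11590 genes were, and with the same sub-cluster mix it was at -0.80. The other 8 lay between -0.44 for Sox5 and 0.28 for Spn, and the intervals of Bhlhe41, Zbtb32 and Cd5 included 0. Between the library labelled HHcy and WD, 3 genes were at least 2-fold lower (Zbtb32 at -1.16, Sox5 just past the limit at -1.0003 and Zfp811 at -1.36), where 3.11% of 11955 genes were, and all 9 intervals lay below 0. Here 6 were past 2-fold at 1000 UMIs per cell and 0 with the same mix. No member was at least 2-fold higher in any of these comparisons, where 2.13%, 1.45% and 1.73% of genes were. The comparisons with the control share the control library. All intervals given here cover counting error only and leave out the spread between mice and between library preparations. In such sums, fewer cells of a type and less RNA of a gene per cell cannot be told apart.

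**Figure D2:**
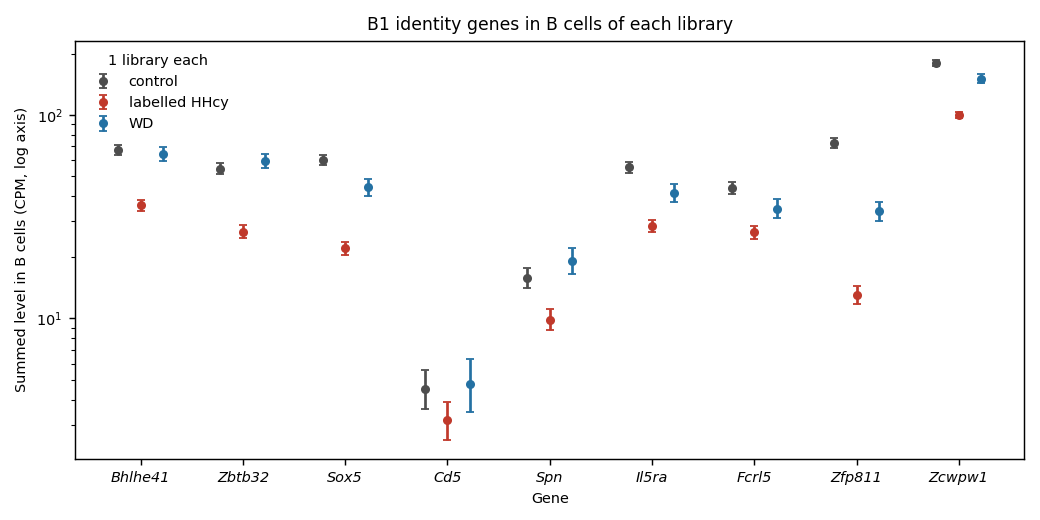
Points are the summed level of each gene in B cells (y axis, CPM on a log axis) in each of the 3 libraries, with exact 95% Poisson intervals as bars. The library labelled HHcy is lowest for all 9 genes, and the gap is widest for Zfp811, at 72.8 CPM in control and 13.1 CPM in the library labelled HHcy.

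Co-expression over B cells was in view when the genes were picked, so their co-detection is only described here, beside independent detection. With every B cell thinned to 2000 UMIs, 33, 30 and 30 of the 36 gene pairs were found together in more cells than expected in the control library, the library labelled HHcy and the WD library. The median ratio of observed to expected cells was 1.60, 2.78 and 2.09. No such count over pairs of other genes is given here, so nothing is read from these numbers of pairs. The ratio itself can be higher where fewer of the B cells hold the genes. Sub-clusters 2 and 3 (described below), where most UMIs of each gene lay, held 50.4%, 19.6% and 38.2% of the B cells. The medians therefore do not rank the libraries by how tightly the genes go together. The pair with the highest ratio in its weakest library was Sox5 with Zfp811, at 2.27, 5.19 and 2.68 times expectation, from 29, 6 and 7 cells. Il5ra with Zcwpw1 followed, at 2.19, 4.93 and 2.34, from 47, 41 and 15 cells. Cd5 and Spn were found together in 0 cells at this depth in every library, where independent detection gave 0.249, 0.184 and 0.209 cells, too few to read.

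Each gene was also read against the number of the other 8 genes found in the same cell, at 4000 UMIs per cell. Zcwpw1 was detected in 8.25% of control B cells with 0 of the others, in 19.8% with 1 and in 39.7% with 2 or more. In the WD library the same shares were 6.55%, 17.8% and 32.2%. Zbtb32 in the library labelled HHcy went from 1.48% to 9.95% to 27.0%. The share was higher at each step in 26 of the 27 series of 1 gene in 1 library. The exception was Cd5 in the library labelled HHcy, at 0.512%, 0.345% and 4.24%, the middle value from 2 of 579 cells. As for the pairs, no such count for other genes is given here, so nothing is read from that number of series. Depth is equal in these cells, but cells with more of the genes had more UMIs before thinning: at 2000 UMIs, the original medians were 10479.5, 12903.5 and 12015 UMIs with 3 or more of the 9 genes and 6044, 6116 and 5675 with 0.

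**Figure D3:**
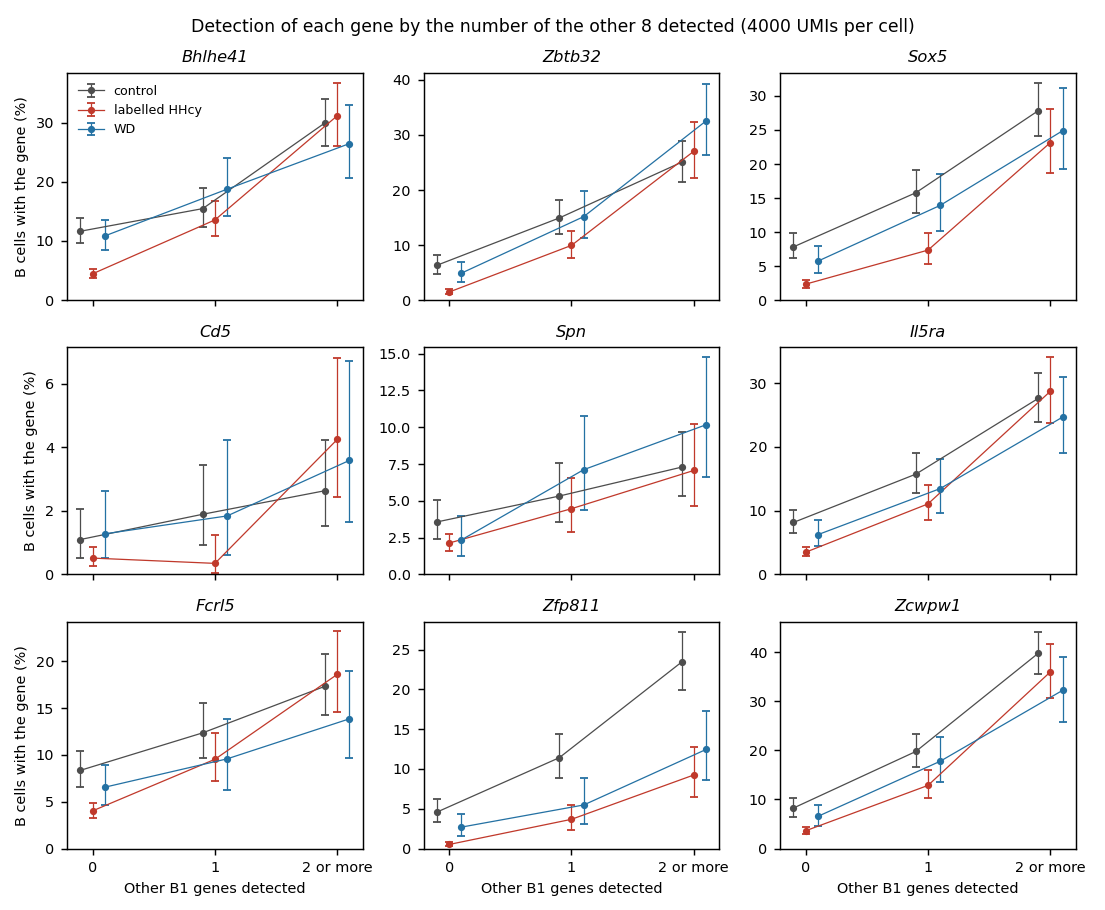
Each panel gives the share of B cells (y axis, percent) in which 1 gene was detected, by how many of the other 8 genes were detected in the cell (x axis), for the 3 libraries at 4000 UMIs per cell. Bars are exact 95% binomial intervals, and lines climb to the right in 26 of the 27 series, with Zcwpw1 reaching 39.7% in the control library.

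B cells with at least 3 of the 9 genes detected at 2000 UMIs made up 4.60% of those of the control library (100 of 2173, 95% Clopper-Pearson interval 3.76% to 5.57%), 1.37% in the library labelled HHcy (50 of 3643, 1.02% to 1.81%) and 3.23% in the WD library (39 of 1207, 2.31% to 4.39%). Without thinning the shares were 34.5%, 12.8% and 25.7%. The control and WD intervals overlap, and that of the library labelled HHcy lies below both. The order of control and WD turned when Zfp811 and Zcwpw1 were not counted, at 1.47% and 1.66%, and at 1000 UMIs per cell, at 0.869% and 1.15%, while the library labelled HHcy was lowest in each case, at 0.412% and 0.383%. In the other named classes of at least 30 cells, 2 cells reached 3 genes, an ILC2-like cell and a macrophage/monocyte of the WD library (1 of 50 and 1 of 2306), and 2 of 300 unnamed cells of the library labelled HHcy did. For macrophages/monocytes of the control library, 0 of 1684 cells allows a share of up to 0.178%, taken as 3 counts of the total. This group is a range of a count per cell and not a cell type.

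B cells were clustered again without the 9 genes, which gave 8 sub-clusters of at least 30 cells in each library and a small one led by platelet genes. Nearly all cells with 3 or more of the genes fell in sub-clusters 2 and 3, in 99 of 100, 50 of 50 and 39 of 39 cells. Sub-cluster 2 was led by S100a4, Socs3 and Lifr and sub-cluster 3 by Ctla4, Lmo7 and Ahnak2, and neither took a cell type name. Names at this step came only from follicular and immature B cell marker lists. The B1 marker list, which held only Cd9 and Plscr1, was not used, so a B1 name could not be given. Sub-clusters 2 and 3 held 50.4%, 19.6% and 38.2% of the B cells. Sub-clusters 0 and 1, follicular B-like, held most of the B cells of the library labelled HHcy, at 35.4% and 27.9%. The 2 sub-clusters with the genes also had more UMIs per cell, with medians of 10618, 11223 and 10809, against 5347, 5996 and 5188 in the other B cells. The part of this depth in their clustering was not tested.

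Zfp811 and Zcwpw1 were almost confined to sub-clusters 2 and 3, which held 98.9%, 94.96% and 98.8% of the Zfp811 UMIs of B cells and 98.7%, 95.3% and 98.1% of those of Zcwpw1. Sox5 followed with 95.9%, 91.0% and 94.4%, and Il5ra with 92.2%, 78.6% and 90.02%. Sox5 was the one gene that was higher in sub-cluster 2 than in sub-cluster 3 in all libraries, at 96.5, 68.8 and 84.5 CPM against 79.1, 64.1 and 70.4. Zcwpw1 ran the other way, with 382, 458 and 379 CPM in sub-cluster 3 and 138, 175 and 165 CPM in sub-cluster 2. Zfp811 did the same, at 158, 72.7 and 97.1 CPM in sub-cluster 3 and 51.5, 10.2 and 24.6 CPM in sub-cluster 2.

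The other genes reached outside this pair of sub-clusters, each in its own way. Bhlhe41 was highest in sub-cluster 7, at 149, 118 and 176 CPM, a group of 62, 62 and 36 cells led by Basp1, Rgs1 and Cxcr3. It was also at 63.8, 69.0 and 68.3 CPM in sub-cluster 4, led by Sox4, Fam129c and Slco4a1, where Zbtb32 was at 1.40, 0.999 and 0 CPM. Zbtb32 and Spn shared sub-cluster 7 with Bhlhe41, at 67.6, 57.7 and 105 CPM for Zbtb32 and 54.1, 37.7 and 96.7 CPM for Spn. Il5ra in those cells was at 1.503, 7.76 and 12.9 CPM, its lowest level in the control library. Fcrl5 was spread more widely than Il5ra, with 85.4, 35.2 and 65.5 CPM in sub-cluster 6, led by Mettl1, Ranbp1 and Hspd1, and 80.7%, 66.1% and 77.3% of its UMIs in sub-clusters 2 and 3.

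**Figure D4:**
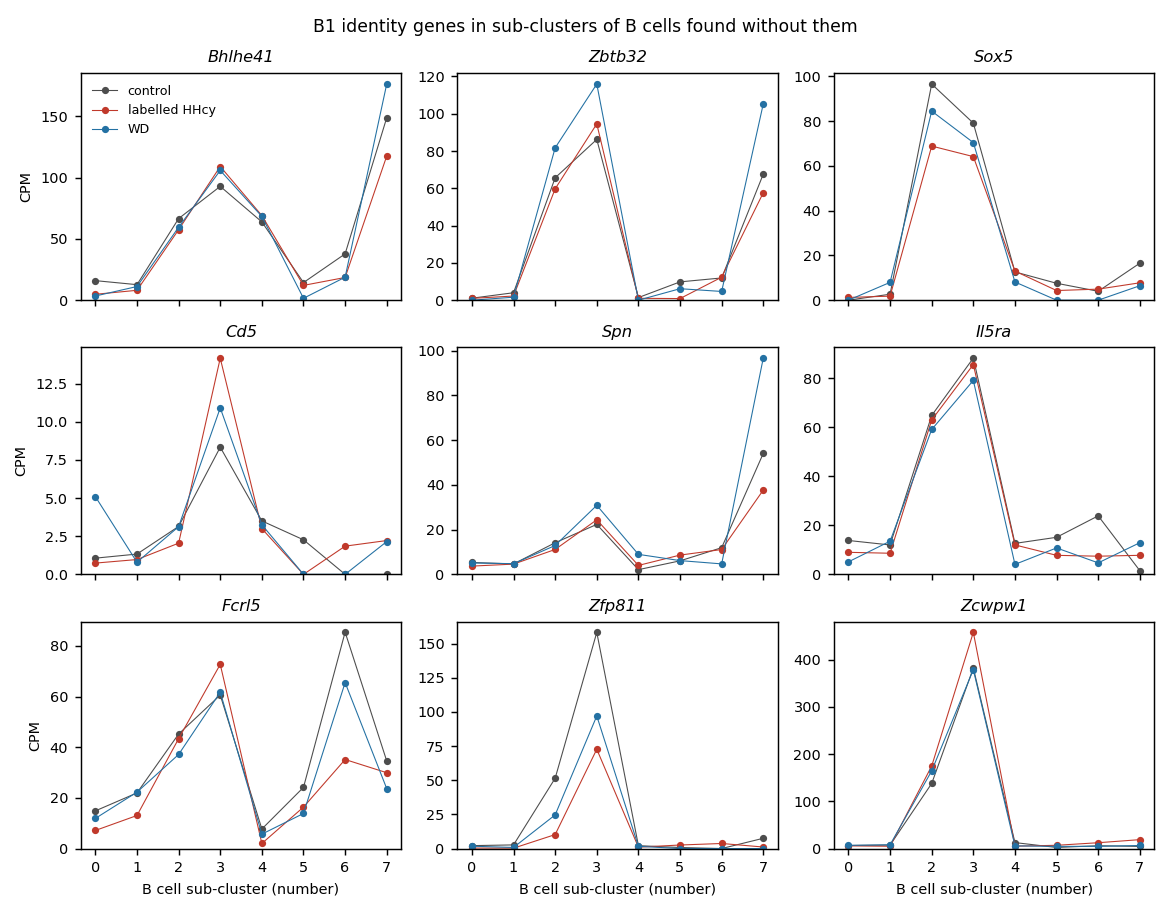
Each panel gives the level of 1 gene (y axis, CPM, linear from 0 and scaled per panel) in B cell sub-clusters 0 to 7 (x axis) of the 3 libraries. Sub-clusters were found without the 9 genes and have no order, and the lines only join points of 1 library. Zfp811 and Zcwpw1 stand up in 2 and 3 alone, while Bhlhe41, Zbtb32 and Spn are also high in 7.

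Inside sub-clusters 2 and 3, most of the gap between the library labelled HHcy and control was gone, and Zfp811 was the exception. Its level there was 109 CPM in the control library, 41.1 in that labelled HHcy and 61.6 in WD, a log2 ratio to control of -1.41 (-1.58 to -1.24) and -0.83 (-1.01 to -0.65). It was the only one of the 9 genes at least 2-fold lower there in the library labelled HHcy, where 1.41% of 11004 genes were and 1.21% were higher, and it ranked 58 from the lowest. In WD none of the 9 was 2-fold lower, where 1.39% of 10784 genes were and 1.02% were higher. Between the library labelled HHcy and WD none was either, where 1.19% of 10447 genes were lower and 1.45% higher, and Zfp811 was at -0.58 (-0.80 to -0.36). Sox5 was at 87.1, 66.5 and 77.3 CPM, with ratios of -0.39 (-0.54 to -0.24) and -0.17 (-0.34 to -0.01). The intervals of Bhlhe41, Zbtb32, Cd5, Spn, Il5ra and Fcrl5 for the library labelled HHcy all included 0, from -0.07 for Spn to 0.44 for Cd5. Zcwpw1 was above control there, at 315 against 270 CPM, a ratio of 0.22 (0.15 to 0.30). In WD, Zbtb32 was above control, at 99.1 against 76.7 CPM, a ratio of 0.37 (0.21 to 0.53). Cells of these sub-clusters are not replicates, and the leading genes that formed the sub-clusters may differ between libraries, which was not tested. In the other B cells together, ratios of the library labelled HHcy to control were -1.37 for Bhlhe41, -1.34 for Sox5, -1.30 for Zfp811 and -1.22 for Zbtb32. They were -0.95 for Fcrl5, -0.69 for Spn and -0.54 for Il5ra, while the intervals of Cd5 (-0.71) and Zcwpw1 (-0.04) included 0. The sub-clusters pooled there had unlike shares in the libraries.

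The Zfp811 gap inside sub-clusters 2 and 3 was seen in the number of cells with the gene. At 4000 UMIs it was detected in 20.5% of cells of sub-clusters 2 and 3 for the control library (18.2% to 23.04%), in 8.45% for that labelled HHcy (6.51% to 10.7%) and in 12.3% for WD (9.46% to 15.7%). Cells with Zfp811 at full depth held a mean of 3.84, 3.41 and 3.18 UMIs of it, and a median of 2 in each library. Zcwpw1, found in 33.3%, 30.1% and 30.5% of the cells, had a mean of 6.51, 9.23 and 7.14 UMIs in each cell that held it. Zfp811 sits among other zinc finger genes on chromosome 17, where reads that match near copies can be split or dropped. The part of this in its level was not tested. Of the 18 other genes within 500000 bases with at least 20 UMIs in these sub-clusters, none was 2-fold higher or lower in either library, and their median log2 ratios to control were -0.08 and -0.03. The lowest for the library labelled HHcy was the next counted gene upstream, Zfp799, at -0.79 (-1.43 to -0.18), from 79 UMIs in control and 32, and its ratio for WD was -0.96.

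**Figure D5:**
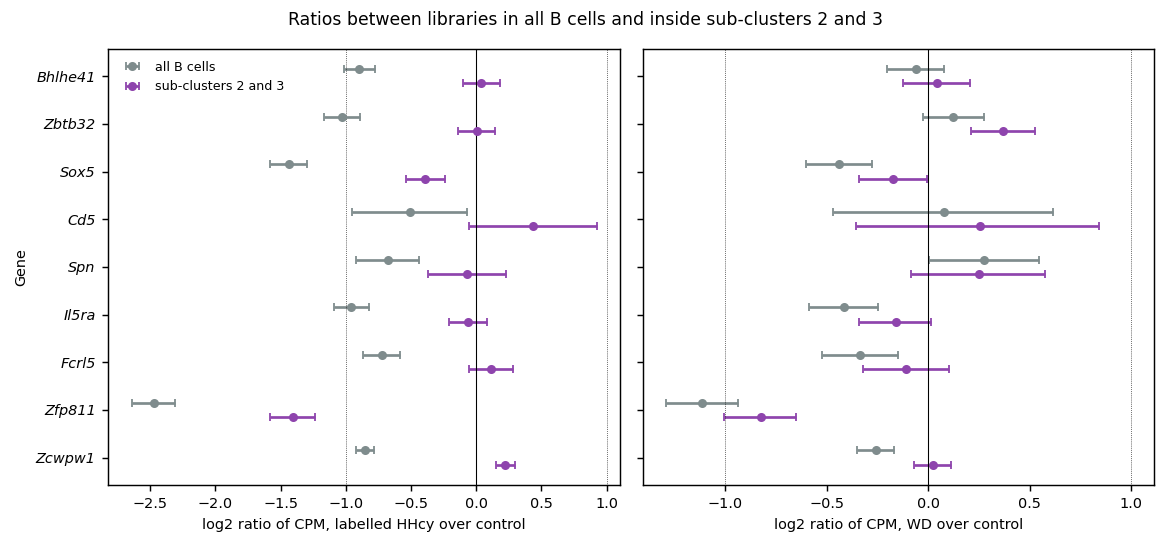
Points are log2 ratios of CPM to the control library (x axes, left for the library labelled HHcy, right for WD) for each gene, in all B cells in grey and in sub-clusters 2 and 3 in purple, with exact 95% conditional binomial intervals, and dotted lines at 2-fold. Purple points sit near 0 for most genes, while Zfp811 stays at -1.41 and -0.83.

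Relatives and partners of the 9 genes were read in the cells with at least 3 of them detected, against B cells with 0 detected. The first group held 100, 50 and 39 cells and the second 1268, 2967 and 803. Low levels in the first group therefore rest on few UMIs, and intervals of these ratios are not given here. In this comparison 1.51% of 9277 tested genes were at least 2-fold higher in all 3 libraries and 3.08% lower, and in single libraries 3.07%, 5.77% and 5.03% were higher and 9.87%, 13.4% and 16.2% lower. Csf2rb, the signalling subunit that pairs with the interleukin 5 receptor, was at 123 against 45.3 CPM in control, 115 against 20.8 in the library labelled HHcy and 110 against 33.8 in WD. Its log2 ratios were 1.44, 2.47 and 1.70, while Il5ra, the other chain, was itself used to pick these cells. Jak2, a kinase of that receptor, had log2 ratios of 0.59, 0.79 and 0.46. Bhlhe40, the closest relative of Bhlhe41, was on the other side, at 16.2 against 112 CPM, 8.85 against 68.1 and 11.4 against 114, or log2 ratios of -2.78, -2.94 and -3.32. Over all cells of sub-clusters 2 and 3, against the other B cells, its levels were 36.8 against 159, 33.4 against 72.3 and 26.7 against 162 CPM, or log2 ratios of -2.11, -1.11 and -2.60. Fcrl1, a relative of Fcrl5, was also lower, at -2.85, -2.31 and -1.94, as was Cd72, a B cell lectin and reported ligand of CD5, at -2.93, -2.51 and -3.12. Over this list of 17 relatives and partners, 1 of 12 tested was at least 2-fold higher in all 3 libraries and 4 were lower, the fourth being Sox4 with 0 UMIs in the cells with 3 or more, and the list had a median of -0.36 beside -0.16 over all genes.

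Other genes described for B1 cells were mostly higher in the same cells. This list and those below were chosen with earlier results of these data known. The cells were picked by genes that were themselves chosen for B1-like cells in these libraries, so the levels only describe them. Of the 16 tested, 6 were at least 2-fold higher in all 3 libraries: Cd9, a tetraspanin, Ctla4, an inhibitory receptor, Prdm1, the regulator of antibody secretion known as Blimp-1, Lgals1, S100a6 and Vim. Ctla4 was at 163 against 32.0 CPM in control, 167 against 14.5 in the library labelled HHcy and 185 against 27.7 in WD. The 1 gene of the list that was lower was Bhlhe40, and the median was 1.33. Il10, which encodes an anti-inflammatory cytokine, was at 17.9 against 15.3 CPM in control, 155 against 7.56 in the library labelled HHcy and 70.8 against 9.78 in WD. Over all cells of sub-clusters 2 and 3 the Il10 levels were closer, at 29.8, 48.0 and 30.1 CPM, with 34.2%, 42.6% and 46.5% of the UMIs in the 10 cells with most of them.

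Genes of follicular and immature B cells were lower. Of 12 follicular genes tested, 8 were at least 2-fold lower in all 3 libraries, with a median of -1.54, while Klf2 and Cxcr5 were above, at 0.99, 0.68 and 1.43 for Klf2 and 0.31, 0.89 and 0.70 for Cxcr5. Ighd, which encodes the heavy chain of IgD, was at 61.5 against 431 CPM in control, 70.8 against 760 in the library labelled HHcy and 41.1 against 453 in WD. Ighm, that of IgM, was at 5787 against 4208, 5167 against 3192 and 6068 against 4544 CPM. High IgM with low IgD is a textbook trait of B1 cells. All 4 immature B genes tested were lower. In other lists, 2 of 6 marginal zone genes were lower, and 1 of 5 memory or age-associated genes was higher (Cd80) and 1 lower. Lower too were 2 of 13 inhibitors of receptor signalling and 1 of 6 constant genes, Ighd. Over all genes 1.51% were higher and 3.08% lower, and these lists are too short to set against those shares. Of 11 general B cell genes, 0 were past 2-fold in all 3 libraries in either direction. Short of that limit, 6 were lower and 2 higher in all 3, with a median of -0.37 beside -0.16 over all genes. Of the 12 markers used to name B cells, 9 were lower and 1 higher in all 3, with a median of -0.47. The B cell name of these cells does not rest on the 9 genes. The summed level of 11 T cell markers in sub-clusters 2 and 3 was 13.3, 20.2 and 17.5 CPM, beside 19.3, 17.2 and 28.5 CPM in the other B cells, with 11, 11 and 9 of the markers seen, and Cd3e and Lef1 at 0 in WD. That of 18 macrophage/monocyte markers, all seen, was 1004, 877 and 914 CPM, beside 1197, 854 and 1248 CPM. That of 8 plasma cell markers, Prdm1 among them and all seen, was higher in sub-clusters 2 and 3, at 194, 226 and 186 CPM beside 169, 143 and 159 CPM. Over the 6 plasma cell markers tested in the cells with 3 or more of the genes, the median log2 ratio was 0.68, with 1 at least 2-fold higher in all 3 libraries (Prdm1) and 1 lower (Sdc1, with 0 UMIs in those cells). The part of any of these in the levels was not tested.

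Beyond these lists, the 12 genes highest in all libraries in the cells with at least 3 of the 9 genes were Ahnak2, Fgl2, Ctla4, Prdm1, Cd300lf, Rbm47, Ypel2, Tubb6, Gas7, Nrp2, Cd80 and Diras2. Ahnak2 led, with log2 ratios of 2.82, 4.29 and 3.26. The 12 lowest among the genes ranked were Dusp2, Laptm5, Ccr7, Fchsd2, Sdc4, Irf8, Mef2c, Chst3, Limd2, Btg1, Smchd1 and Cxcr4. Both rankings took only genes that met the count minimum in the cells with at least 3 of the 9 genes in each library. They leave out other genes, such as Bhlhe40 and Cd72, whose ratios given above were lower than those of all 12 in each library. Ccr7, which guides lymphocytes into lymphoid tissue, was at -2.59, -1.79 and -1.93. Across 24 units of 1 sub-cluster in 1 library, the non-member most like Zcwpw1 was Gramd2, with a Pearson r of 0.97 on log2(CPM + 1). The gene most like Zfp811 was Anks1b (0.95), and the one most like Zbtb32 was Itgb1 (0.94). For Sox5 it was Nfam1 (0.91), for Bhlhe41 Hmgn3 (0.91) and for Il5ra Prox1 (0.89). For Spn it was C130026I21Rik (0.93) and for Cd5 Dgcr6 (0.84). Units of 1 library share its depth and free RNA, so these values only describe the pattern.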

How the data were processed

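Single cells of 3 aortic libraries, 1 per group, were read from the authors' deposited matrices of raw UMI counts per gene and barcode, with no normalization. Per the file headers, Cell Ranger 4.0.0 made them, while the submitters' processing notes name Cell Ranger 2.2.0 and mm10. Gene positions came from GENCODE M21, and promoter windows from RefSeq. The 9 genes and all gene lists were chosen with earlier results of these data known.

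Barcodes with fewer than 200 genes or over 10% mitochondrial UMIs were left out. Barcodes with marker genes of 2 or more of 5 lineages were left out as doublets, which took 11.1%, 22.1% and 21.2% of those that passed. Cells of the 3 libraries were clustered together (Leiden 0.10.2, resolution 1, 20 neighbours, 30 principal components, 2000 variable genes, seed 1), without the 9 genes or immunoglobulin and receptor segment genes. Clusters were named from marker lists, with a naming score of 0.2, which was set, like the doublet limits, with the data in view. In all, 446, 421 and 549 cells stayed unnamed. B cells were clustered again at resolution 0.5.

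CPM is the UMIs of a gene over the cells of a class, scaled to all UMIs of these cells. Shares of cells were taken after thinning each cell to 2000 or 4000 UMIs, without the shallower cells, which numbered 20, 21 and 17 B cells at 2000. Thinning to 4000 was chosen after the data were seen. A gene was tested between libraries with at least 20 UMIs over both and called at 2-fold. In the comparison by number of the 9 genes detected, groups came from thinned cells, levels from all their UMIs, and a gene needed at least 20 UMIs over both groups in each library, or, among the companions, in the cells with 3 or more. Ratios over a group with 0 UMIs were set at the bound of 3 counts. Intervals are exact at 95% (Poisson, Clopper-Pearson, conditional binomial). Named genes were the 9, the 12 companions highest and the 12 lowest over all libraries, the 3 genes most like each of the 9, of which the first is printed (that of Fcrl5 is not reported here), and the fixed lists. Zfp811's neighbours, its detection inside sub-clusters and the cells that hold Il10 were looked at after the values were seen. Counting and intervals were tested on simulated counts. Alternatives covered quality limits, doublets, naming, resolution, thinning, plasma cells, scaling, sub-cluster mix, leading cells and count minimums.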

Additional observations from a re-analysis of the deposited data

How the results depend on the processing

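With 1 library per group, no library could be left out. No paired analysis was possible because each group had 1 library and the result comes from no test. Of 270 recomputed log2 ratios of the 9 genes in B cells, 9 changed sign, and 3 of these started from intervals that included 0 (Bhlhe41 and Cd5 for WD over control). No ratio moved beyond its counting interval with 20% mitochondrial UMIs, doublets kept, cells named by their own markers, resolution 2, plasma cells counted as B cells, totals without immunoglobulin genes or scaling to the median ratio. With the same sub-cluster mix in both libraries, the values for the library labelled HHcy over control went from -2.47 to -1.32 for Zfp811, from -1.44 to -0.38 for Sox5, from -1.03 to -0.04 for Zbtb32, from -0.96 to -0.15 for Il5ra, from -0.90 to -0.11 for Bhlhe41, from -0.72 to -0.24 for Fcrl5 and from -0.68 to -0.09 for Spn, and to 0.25 for Cd5 and 0.27 for Zcwpw1. For WD over control, Zfp811 went from -1.11 to -0.80 and Zcwpw1 to 0.0547. For the library labelled HHcy over WD, Il5ra went to 0.10 and Zcwpw1 to 0.20. Thinning to 1000 UMIs moved or turned 20 of 27 ratios. For the library labelled HHcy over control it gave -1.55 for Cd5, -1.12 for Bhlhe41, -1.06 for both Il5ra and Zcwpw1, and 0.0103 for Spn. Cd5 for the library labelled HHcy over WD went from -0.59 to -2.17. Without the 10 cells with most UMIs of a gene, 4 of 27 moved, and Il5ra for the library labelled HHcy over control passed 2-fold at -1.01. Sox5 for the library labelled HHcy over WD, close to the limit, was within 2-fold in 4 settings beside the mix.

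The log2 ratio of the share of B cells with at least 3 genes was -1.75 for the library labelled HHcy over control, -0.51 for WD over control and -1.24 for the library labelled HHcy over WD. Thinned to 1000 UMIs, the first was -1.18 and the second 0.41, from 19, 14 and 14 cells. Without Zfp811 and Zcwpw1, the second was 0.17 and the third -2.01. The cause was not tested.

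Counts of genes past 2-fold followed the count minimum, as fewer or more genes were tested. With 100 UMIs, the library labelled HHcy over control had 72 higher and 202 lower, WD over control 32 and 12, and the library labelled HHcy over WD 41 and 115. With 1 UMI these were 2387 and 2047, 1832 and 2148, and 2628 and 2213. With cells named by their own markers, WD over control had 250 lower, against 131.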
